A study of Mus musculus with 12 samples.

Results

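The histone genes were read from the expression table of leukemic mouse splenocytes by their symbol. Members were the rows whose GENCODE vM21 symbol begins with Hist1h, Hist2h, Hist3h, Hist4h, H2af or H3f3, or is *H1f0* or *H1fx*, and there were 68 of them among 15651 rows. Of these, 55 are clustered histone genes (6 of H1, 17 of H2A, 14 of H2B, 6 of H3 and 12 of H4) and 13 are replacement histone genes. The clustered genes lie in the clusters Hist1 on chromosome 13 (44 rows), Hist2 on chromosome 3 (8 rows) and Hist3 on chromosome 11 (3 rows). Another 21 annotated genes that meet the rule, among them *H1f0*, *Hist4h4* and 5 H3 genes of the Hist1 cluster, have no row in the table and were not analysed here. By biotype 61 members are protein coding, 6 are pseudogenes (*Hist1h2aj*, *Hist1h2al*, *Hist3h2bb-ps*, *H2af-ps*, *H3f3a-ps2* and *H3f3c*) and *H3f3aos* is an antisense RNA of *H3f3a*.

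RNA was measured in c-Kit+ splenocytes, spleen cells enriched for the stem cell factor receptor, from moribund mice with acute myeloid leukemia. *D/F* mice were *Dnmt3a* fl/fl, *Flt3* ITD/ITD and Mx1Cre, and *T/F* mice were *Tet2* fl/fl, *Flt3* ITD/ITD and Mx1Cre, so all groups share the homozygous *Flt3* internal tandem duplication and the Cre driven by the interferon-responsive Mx1 promoter. No pIpC was given, and the cells deleted 1 or both floxed alleles spontaneously, so the deletion can differ between mice. Cells of 3 mice per genotype were cultured for 6 hours with SCF, IL6 and IL3 and with either DMSO or CCS1477, an inhibitor of the bromodomains of the acetyltransferases p300 and CBP, which made 4 groups of 3 libraries each (12 in all). *D/F* cells received 4 μM and *T/F* cells 2 μM, so genotype and dose cannot be told apart.

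Histones package DNA into nucleosomes, in which H2A, H2B, H3 and H4 form the core and H1 binds the linker DNA. The clustered genes lack introns for the most part, are transcribed mainly in S phase when new chromatin is assembled, and give mRNAs that end in a conserved stem-loop bound by SLBP in place of a poly(A) tail. The replacement genes lie alone, have introns in most cases and polyadenylated mRNAs, are expressed outside S phase too, and encode variants such as H3.3, H2A.Z, H2A.X and macroH2A that are placed into chromatin independently of replication. Histone tails are the substrate that p300 and CBP acetylate.

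All levels are in TPM, a transcript abundance scaled to gene length and to the total of each library, as the authors estimated it by kallisto. No spike-in is named, so shifts of the RNA content of a cell do not show, and in bulk cells a smaller number of cells of a type and less RNA per cell cannot be told apart. Libraries summed to between 914204 and 931697 TPM over the rows of the table, and the number of reads behind a value is not given by TPM. *Dnmt3a* was at 29.3 to 55.7 TPM in DMSO-treated *D/F* cells and 39.9 to 53.9 TPM in *T/F* cells, and *Tet2* at 38.3 to 43.4 and 30.0 to 35.8 TPM, so the level of the floxed gene did not separate the genotypes for *Dnmt3a* and did for *Tet2*. All 8 progenitor markers were in the table and summed to 3876 to 10966 TPM with DMSO and 808 to 4438 TPM with CCS1477 in *D/F*, and to 4737 to 7117 and 1773 to 3197 TPM in *T/F*. Neutrophil markers (6 of 6 in the table) summed to 2654 to 9359.7 TPM with DMSO and 1626 to 9308 TPM with CCS1477 in *D/F*, and to 2323 to 7127 and 2488 to 6889.6 TPM in *T/F*. Markers of macrophages (4 of 5 in the table) were low and moved with treatment, from 16.0 to 32.1 TPM with DMSO over both genotypes to 2.72 to 12.3 TPM with CCS1477. Erythroid (5 of 6), B cell (2 of 5) and T cell (3 of 5) markers summed to at most 18.2, 23.2 and 25.7 TPM in any library. Megakaryocyte markers (3 of 4) summed to 32.6 to 199 TPM with DMSO and 20.1 to 63.9 TPM with CCS1477 in *D/F*, and to 47.5 to 54.0 and 31.9 to 34.4 TPM in *T/F*. Mast cell markers (2 of 4) summed to 75.1 to 176 and 17.7 to 39.6 TPM in *D/F*, and to 33.5 to 71.9 and 17.0 to 37.1 TPM in *T/F*. The megakaryocyte, mast cell and B cell sums were lower with CCS1477 in every mouse. The part of these cells in the histone results was not tested. *D/F* replicate 2 stood apart from the other *D/F* mice (correlation with them across genes 0.945 to 0.952 under DMSO, against 0.978 between replicates 1 and 3), and its values are named where they differ. Under DMSO its megakaryocyte markers summed to 199 TPM, against 32.6 and 46.2 TPM in replicates 1 and 3, and its mast cell markers to 176, against 86.9 and 75.1 TPM. Its progenitor and neutrophil sums were the lowest in *D/F* under both treatments, while *Kit*, *Cd34* and *Flt3* were highest in it under DMSO.

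The end of the RNA divides the members, and the stem-loop that marks a clustered histone mRNA was therefore looked for first. The 16-base stem-loop was found after the stop codon of 37 of the 42 protein-coding clustered genes whose annotated transcript runs at least 40 bases past the stop codon, 22 to 59 bases downstream of it. Among the 9 protein-coding replacement genes it was found in *H2afx* alone, 47 bases after the stop codon. The 20 genes with the commonest form belong to H1, H2A, H2B and H3, and the forms of the H4 genes have other bases in the stem. The sequences of 5 members are shown with 5 bases on either side, from the GENCODE vM21 transcripts of GRCm38, with the stem-loop in capitals. They are 4 clustered genes that the results turn on and the 1 replacement gene that has a stem-loop.
Hist1h2ad: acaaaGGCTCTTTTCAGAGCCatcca
Hist3h2a: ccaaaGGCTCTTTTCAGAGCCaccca
Hist1h4i: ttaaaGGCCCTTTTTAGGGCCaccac
Hist2h2ac: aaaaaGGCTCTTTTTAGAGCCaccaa
H2afx: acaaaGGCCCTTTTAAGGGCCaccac

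A polyadenylation signal (AATAAA or ATTAAA) within the last 50 bases of an annotated transcript was found in 15 of the same 42 clustered genes and in all 9 replacement genes. In 12 clustered genes the stem-loop and the signal occurred together, as in *Hist3h2a*, *Hist3h2ba* and *Hist1h4i*. *Hist2h2be*, *Hist1h2bq* and *Hist1h2br* had the signal and no stem-loop. For the libraries the sources name an mRNA kit as well as removal of ribosomal RNA, so how far RNA without a poly(A) tail was kept is not known from them. The clustered genes were measured at high levels all the same.

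Copies of histone genes share sequence, and reads that match several copies were divided among them by kallisto. Over the 55 clustered genes a median of 41.1% of the 31-base words of the annotated transcripts occurred in no other gene, and 32 of the 55 genes had under 50% of such words. For the replacement genes the median was 88.8%. Linker histone genes were the most distinct of the clustered types, with a median of 96.2%, against 20.2% for H2A, 36.9% for H3, 50.9% for H2B and 51.0% for H4. *Hist2h2aa1*, *Hist2h2aa2* and *Hist2h3b* had no word of their own (0%), all of their words being found in predicted genes too, and *Hist1h2bq* shared 98.3% of its words with *Hist1h2br*. Levels of such genes are therefore uncertain one by one, and sums over copies are given beside them. *Hist2h2be* was among the most distinct members, with 97.2% of its words found nowhere else.

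Under either treatment the clustered genes made up several percent of all TPM. Their sum was 34118 ± 6004 TPM with DMSO in *D/F* and 37941 ± 2531 TPM in *T/F* (SD, n = 3 each), or 3.67% ± 0.640 and 4.10% ± 0.276 of the library. The highest were the H4 genes *Hist1h4d* and *Hist1h4k*, with means of 3366 and 2607 TPM over the 12 libraries, then the H2A gene *Hist2h2aa1* at 2524 TPM, *Hist1h4h* at 1968 TPM and the H3 gene *Hist2h3b* at 1914 TPM. *Hist1h3b* (1515 TPM), *Hist1h4c* (1504 TPM) and the H2B gene *Hist1h2bk* (1296 TPM) followed. At the low end were *Hist1h2br* (1.59 TPM), *Hist1h2ba* (2.58 TPM) and *Hist1h1t* (3.04 TPM), of which the latter pair encode the testis-specific forms of H2B and H1. The replacement genes summed to 3258 ± 227 TPM in *D/F* and 3412 ± 118 TPM in *T/F* with DMSO (SD, n = 3 each), and *H2afz*, *H3f3b*, *H3f3a* and *H2afy* were the highest of them, with means of 919.9, 881, 849.9 and 829 TPM. The pseudogene *Hist1h2aj* was listed at a mean of 1091 TPM, and 93.5% of its words occur in *Hist1h2ai*, which was listed at 49.8 TPM.

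CCS1477 raised the level of many histone genes and lowered that of 1. With genotype as a covariate and 6 mice per treatment, 26 of the 55 clustered genes (47.3%) rose and none fell, and 8 of the 13 replacement genes (61.5%) rose while *H2afy* fell (adjusted p under 0.05 by limma on log2(TPM + 1), Benjamini-Hochberg over all genes). The background was 25.8% of 15583 genes tested called higher and 19.6% called lower. The median log2 fold change was 0.31 for the clustered and 0.69 for the replacement genes, against 0.07 for all genes tested. All 68 members passed the filter on low values. The level was higher with CCS1477 in each of the 6 mice for 40 clustered genes (72.7%) and 7 replacement genes (53.8%), against 31.8% of all genes tested. The clustered share depended on the scaling of the libraries. Rescaled to the same median, 11 clustered genes (20.0%) were called higher against 23.2% of all genes, so that they no longer stood above the background, while 7 replacement genes (53.8%) were called. With the mouse as a block, 42 clustered (76.4%) and 7 replacement genes (53.8%) rose, against 34.5% of all genes. Leaving out any 1 *T/F* mouse left 17 clustered genes (30.9%) and 7 replacement genes that rose, against 20.4% to 20.8% of all genes, and leaving out *D/F* replicate 2 gave 36 (65.5%) and 8 against 32.6%.

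Within *D/F*, 7 clustered genes (12.7%) rose and none fell, and 4 replacement genes (*H2afx*, *H2afz*, *H3f3a* and *H3f3b*) rose and *H2afy* fell. In that comparison 5.14% of 15501 genes tested were called higher and 6.51% lower. Of the clustered genes 50 of 55 had a log2 fold change above 0, with a median of 0.37, and the replacement genes had a median of 0.76, against 0.06 for all genes. With the mouse as a block there were 27 clustered and 7 replacement genes higher, with 2 replacement genes (*H2afy* and the pseudogene *H3f3a-ps2*) lower, where 21.4% of all genes were called higher and 18.0% lower. Rescaled to the same median, 5 clustered genes (9.09%) and 2 replacement genes rose, against 6.99% of all genes, and *Hist1h1a*, *Hist3h2a*, *H2afx* and *H2afz* lost their call (adjusted p = 0.0674, 0.0545, 0.0585 and 0.0652, limma). Without *D/F* replicate 1 or without replicate 3, no member and no gene of the whole table passed in *D/F* (count 0, limma). Without replicate 1, 9 of 55 clustered and 4 of 13 replacement genes had an unadjusted p under 0.05, beside 2494 of all 15539 genes tested (limma). Without replicate 3 these were 7 and 5, beside 2330 of 15545. The clustered genes were thus near the share of all genes in both fits. Without replicate 2, 11 clustered genes (20.0%) and 7 replacement genes rose, against 13.8% of all genes.

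Within *T/F*, 24 clustered genes (43.6%) and 8 replacement genes (61.5%) rose, no clustered gene fell and *H2afy* fell, with 25.8% of 15256 genes tested called higher and 17.6% lower. The medians were 0.27 for the clustered and 0.61 for the replacement genes, against 0.07 for all genes. The clustered genes did not stand above the background in 2 alternatives. With the libraries rescaled to the same median 10 of them (18.2%) rose against 20.6% of all genes, and in the shared fit of the 4 groups 7 (12.7%) against 13.8%. Without *T/F* replicate 1 there were 8 (14.5%) against 12.7%, and without replicate 2 there were 7 (12.7%) against 11.5%. Without replicate 3 there were 21 (38.2%) against 19.2%. With the mouse as a block 34 (61.8%) rose against 31.2% of all genes. By quantile normalization 28 (50.9%) rose against 25.8%, and with a trend in eBayes 32 (58.2%) against 26.4%. Between 7 and 8 replacement genes rose in each of these.

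**Figure D1:**
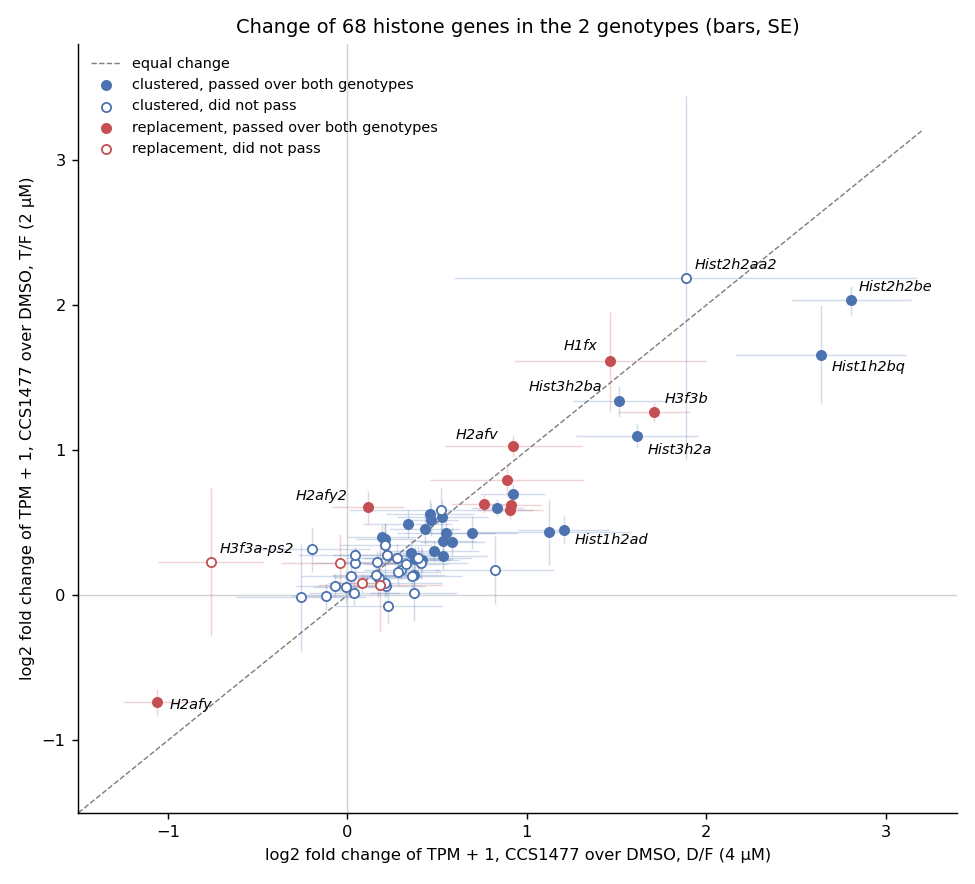
Log2 fold change of TPM + 1 with CCS1477 against DMSO for each of the 68 histone genes in *D/F* (horizontal axis, 4 μM) and *T/F* (vertical axis, 2 μM), with standard errors as bars, clustered genes in blue and replacement genes in red, filled where the gene passed over both genotypes. Most members sit a little above 0 on both axes, *Hist2h2be* and *Hist1h2bq* lie far to the upper right with the open point of *Hist2h2aa2*, which did not pass, and *H2afy* is the filled point at the lower left.

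All 6 clustered linker histone (H1) genes were higher on average in both genotypes, as were all 6 clustered H3 genes. For H4 it was 11 of 12 genes in *D/F* and 12 of 12 in *T/F*. Among all genes tested 8496 of 15501 were higher in *D/F* and 8725 of 15256 in *T/F*. Over both genotypes 5 of the 6 H1 genes (83.3%) rose, against 25.8% of all genes, with a median log2 fold change of 0.51. The H1 genes summed to 2025 to 2979 TPM in *D/F* with DMSO and 3303 to 4680.2 TPM with CCS1477, and to 2845 to 3201 and 4081 to 4634 TPM in *T/F*. The ranges did not overlap in either genotype. As a share of clustered TPM, H1 went from 7.68% ± 0.206 to 9.65% ± 0.141 in *D/F* and from 8.11% ± 0.233 to 9.56% ± 0.109 in *T/F* (SD, n = 3 each), also without overlap. *Hist1h1a* (chromosome 13 from 23763666 to 23764406, plus strand, GRCm38 as for all positions of genes here) was at 716, 588 and 819 TPM with DMSO in *D/F* mice 1 to 3 and 1395, 1183 and 1420.4 TPM with CCS1477. In *T/F* it was at 884, 864 and 826 TPM and then 1457, 1410.0 and 1317 TPM. Every treated library was above every DMSO library, with log2 fold changes of 0.92 in *D/F* (SE 0.18, adjusted p = 0.0282) and 0.70 in *T/F* (SE 0.07, adjusted p = 0.00104, limma). *Hist1h1a* shares almost nothing with other genes, 99.7% of its words being its own. *Hist1h1b*, *Hist1h1c*, *Hist1h1e* and *Hist1h1t* rose over both genotypes by 0.49, 0.45, 0.53 and 0.78 on the log2 scale, and *Hist1h1d* had a value of 0.27 that did not pass (adjusted p = 0.176, limma) unless the mouse was a block (adjusted p = 0.00208).

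Among the core histones 7 of 12 H4 genes (58.3%), 3 of 6 H3 genes, 6 of 14 H2B genes (42.9%) and 5 of 17 H2A genes (29.4%) rose over both genotypes, against 25.8% of all genes, so the H2A genes were close to the background, and the median log2 fold changes were 0.30, 0.24, 0.33 and 0.25. The H4 genes summed to 13274 ± 2066 TPM with DMSO and 16182 ± 2055 TPM with CCS1477 in *D/F*, and to 13791 ± 1134 and 17524 ± 1106 TPM in *T/F* (SD, n = 3 each). In *D/F* the ranges of the 4 core types overlapped between treatments, and replicate 2 was lowest under both. In *T/F* they did not overlap for H2B, H3 and H4 and did for H2A. All 5 summed types were higher with CCS1477 in 6 of 6 mice, as were 31.8% of all genes tested. Over both genotypes the sums of H1 and H4 passed (adjusted p = 0.00185 and 0.0194, limma). Those of H2A, H2B and H3 did not (adjusted p = 0.160, 0.0645 and 0.0945, limma) unless the mouse was a block (adjusted p = 0.00637, 0.00197 and 0.00193). In *D/F* no sum passed without the block, the smallest adjusted p being 0.112 for H1 (limma).

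**Figure D2:**
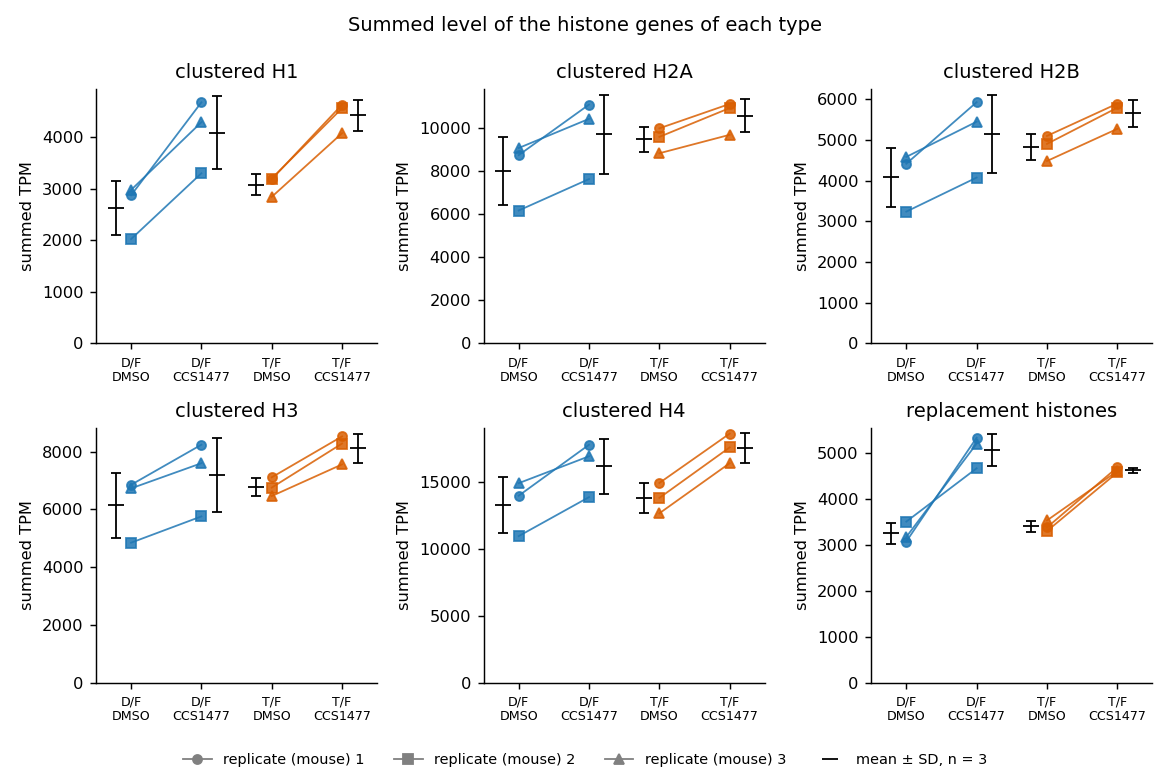
Summed TPM of the clustered histone genes of each type and of the replacement genes in each library, with the libraries of a mouse joined by a line, *D/F* in blue and *T/F* in orange, and the mean ± SD of 3 mice in black beside them. Each line rises from DMSO to CCS1477, *D/F* replicate 2 (squares) is the lowest *D/F* line for the clustered types, and for H1 and the replacement genes the treated points lie above all DMSO points.

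Of the 8 most abundant clustered genes, *Hist1h4d*, *Hist1h4k*, *Hist1h4h*, *Hist1h4c* and *Hist1h3b* rose over both genotypes, by 0.30 to 0.49 on the log2 scale, and none of the 8 passed in *D/F*. Rescaled to the same median, all of these but *Hist1h4c* lost the call over both genotypes. *Hist1h4c*, for example, was at 1214, 1170.0 and 1389.8 TPM with DMSO and 1877, 1582 and 1748 TPM with CCS1477 in *D/F*, and at 1391, 1264 and 1076 and then 1911, 1738 and 1683 TPM in *T/F*. Its treated libraries were all above the DMSO libraries. *Hist2h2aa1*, *Hist2h3b* and *Hist1h2bk* had log2 fold changes of 0.22, 0.13 and 0.14 that did not pass (adjusted p = 0.183, 0.423 and 0.331, limma), and with the mouse as a block *Hist2h2aa1* and *Hist1h2bk* passed (adjusted p = 0.00571 and 0.0458).

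The largest changes that passed were in *Hist2h2be* and *Hist1h2bq*, clustered genes of low level that end in a polyadenylation signal. *Hist2h2be* (chromosome 3 from 96221119 to 96223738, plus strand) encodes an H2B variant. It was at 7.99, 6.27 and 3.25 TPM with DMSO in *D/F* mice 1 to 3 and at 61.3, 36.1 and 40.3 TPM with CCS1477. In *T/F* it was at 4.73, 5.75 and 4.92 TPM and then at 23.0, 26.8 and 22.5 TPM. Each treated library was well above all DMSO libraries, 7.86-fold on the means in *D/F* and 4.69-fold in *T/F*. The log2 fold changes were 2.81 (SE 0.34, adjusted p = 0.0085) and 2.03 (SE 0.10, adjusted p = 0.000333, limma).

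*Hist1h2bq* (chromosome 13 from 21806612 to 21810197, minus strand), another H2B gene, went from 7.56, 1.83 and 2.85 TPM to 37.9, 31.3 and 16.9 TPM in *D/F*. In *T/F* it went from 1.37, 4.49 and 1.75 TPM to 9.15, 11.7 and 7.71 TPM. The groups did not overlap, and the log2 fold changes were 2.64 (SE 0.48, adjusted p = 0.0233) in *D/F* and 1.66 (SE 0.34, adjusted p = 0.011) in *T/F* by limma. Its near copy *Hist1h2br* was at 0.632 to 4.32 TPM across the 12 libraries with a log2 fold change of 0.50 over both genotypes (adjusted p = 0.0989, limma). Their sum, which sets aside how reads were divided within this pair, was 4.98 ± 3.50 and 31.2 ± 11.9 TPM in *D/F*. In *T/F* it was 3.88 ± 1.44 and 11.1 ± 2.60 TPM (SD, n = 3 each), again without overlap. The sum does not settle reads shared with other H2B genes. Of the words of the abundant *Hist1h2bk* 67.9% occur in *Hist1h2bq*, as do 66.7% of those of *Hist1h2bj*, and the part of such reads was not tested.

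Of the Hist3 cluster on chromosome 11, *Hist3h2ba* and *Hist3h2a* rose in both genotypes. *Hist3h2ba* (58948920 to 58949533, plus strand), an H2B gene, was at 2.22, 3.49 and 1.42 TPM with DMSO and 8.36, 9.84 and 7.06 TPM with CCS1477 in *D/F*, and at 4.99, 4.99 and 5.46 and then 12.4, 16.4 and 15.0 TPM in *T/F*. *Hist3h2a* (58954685 to 58956830, plus strand), an H2A gene, was at 72.5, 31.3 and 67.9 and then 179, 142 and 181 TPM in *D/F*. In *T/F* it was at 77.9, 84.6 and 75.6 and then 174, 182 and 157 TPM. Neither gene overlapped between treatments in either genotype. Log2 fold changes of *Hist3h2ba* were 1.52 in *D/F* (SE 0.26, adjusted p = 0.0201) and 1.34 in *T/F* (SE 0.11, adjusted p = 0.000696), and those of *Hist3h2a* 1.61 (SE 0.34, adjusted p = 0.0332) and 1.10 (SE 0.08, adjusted p = 0.000593, limma). Of the words of *Hist3h2a* 32.1% are shared with *Trim17*, a gene at means of 3.92 to 5.54 TPM in the 4 groups whose log2 fold change was -0.15 over both genotypes (adjusted p = 0.594, limma).

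The other clustered genes that passed in *D/F* were *Hist1h2ad* and *Hist1h4i*. *Hist1h2ad* (chromosome 13 from 23574381 to 23574952, plus strand) encodes H2A and was at 92.7, 59.2 and 89.9 TPM and then 203, 214 and 142 TPM in *D/F*, and at 109, 127 and 108 and then 169, 156 and 147 TPM in *T/F*. It rose by 1.20 on the log2 scale in *D/F* (SE 0.25, adjusted p = 0.0332) and by 0.45 in *T/F* (SE 0.09, adjusted p = 0.0114, limma). Only 31.7% of the words of *Hist1h2ad* are its own and 68.3% occur in other members, so its level taken alone is uncertain. *Hist1h4i* (chromosome 13 from 22040636 to 22041362, minus strand) encodes H4 and was at 111, 97.4 and 109.9 TPM and then 189, 202 and 178 TPM in *D/F*, and at 121, 115 and 112 and then 174, 176 and 179 TPM in *T/F*. The treated libraries of both genes were above all DMSO libraries of their genotype, and *Hist1h4i* changed by 0.83 in *D/F* (SE 0.14, adjusted p = 0.0203) and 0.60 in *T/F* (SE 0.06, adjusted p = 0.00108, limma). In an exact permutation test of 3 libraries against 3, all these genes had the smallest p that the design allows, 0.1 (two-sided). They had been named by their limma result on the same libraries, so this p is no separate support.

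**Figure D3:**
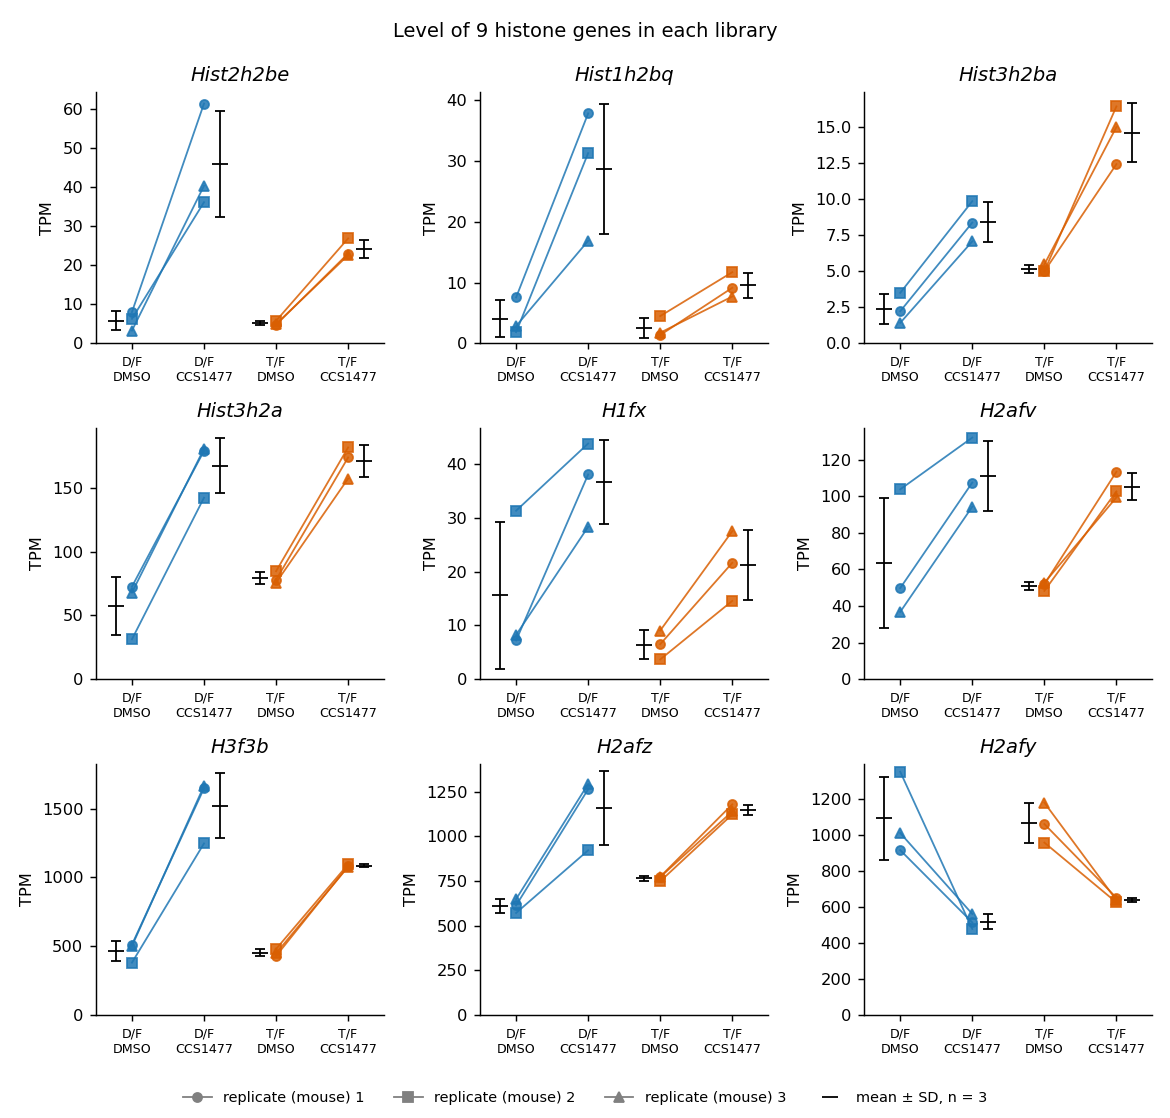
TPM of 9 histone genes in each library, with the DMSO and CCS1477 libraries of a mouse joined by a line, *D/F* in blue, *T/F* in orange, and mean ± SD of 3 mice in black. Lines rise in all 6 mice except for *H2afy*, where they fall in all 6. *D/F* replicate 2 (squares) starts above the other mice for *H1fx*, *H2afv* and *H2afy* and below them for *Hist3h2a*, *H3f3b* and *H2afz*.

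Grouped by the end of the annotated transcript, the 25 clustered genes with a stem-loop and no signal had a median log2 fold change of 0.33 in *D/F*, against 0.25 in *T/F*, and the 12 with both had 0.45 and 0.36. The 3 with a signal and no stem-loop had values of 2.81 (*Hist2h2be*), 2.64 (*Hist1h2bq*) and 0.82 (*Hist1h2br*) in *D/F*, against 2.03, 1.66 and 0.17 in *T/F*. The last pair share most of their sequence and are not independent. The 2 with neither, *Hist1h1a* and *Hist1h2bc*, had a median of 0.66 in *D/F*, against 0.47 in *T/F*. In the order given, 11 of 25, 8 of 12, 2 of 3 and 2 of 2 genes of these groups rose over both genotypes, where the background was 25.8%. Of the 5 clustered genes that rose with a change of at least 2-fold in *D/F*, 4 end in a signal, and the fifth is *Hist1h2ad*. The highest point among the genes with a stem-loop and no signal is *Hist2h2aa2*, which was at 0 to 142 TPM in the 12 libraries and did not pass in either genotype. It has no word of its own, and together with its copy *Hist2h2aa1* it summed to 2149 ± 439.9 and 2651 ± 457 TPM in *D/F* and 2546 ± 153 and 2866 ± 215 TPM in *T/F* (SD, n = 3 each), with overlap. Split by distinctness instead, the 22 clustered genes with over 50% of words their own had a median of 0.53 in *D/F*, against 0.41 in *T/F*, and 15 of them rose over both genotypes. The 33 others had 0.33 and 0.22, and 11 rose, shares of 68.2% and 33.3% against 25.8% of all genes. These groups were compared by counts and medians only.

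**Figure D4:**
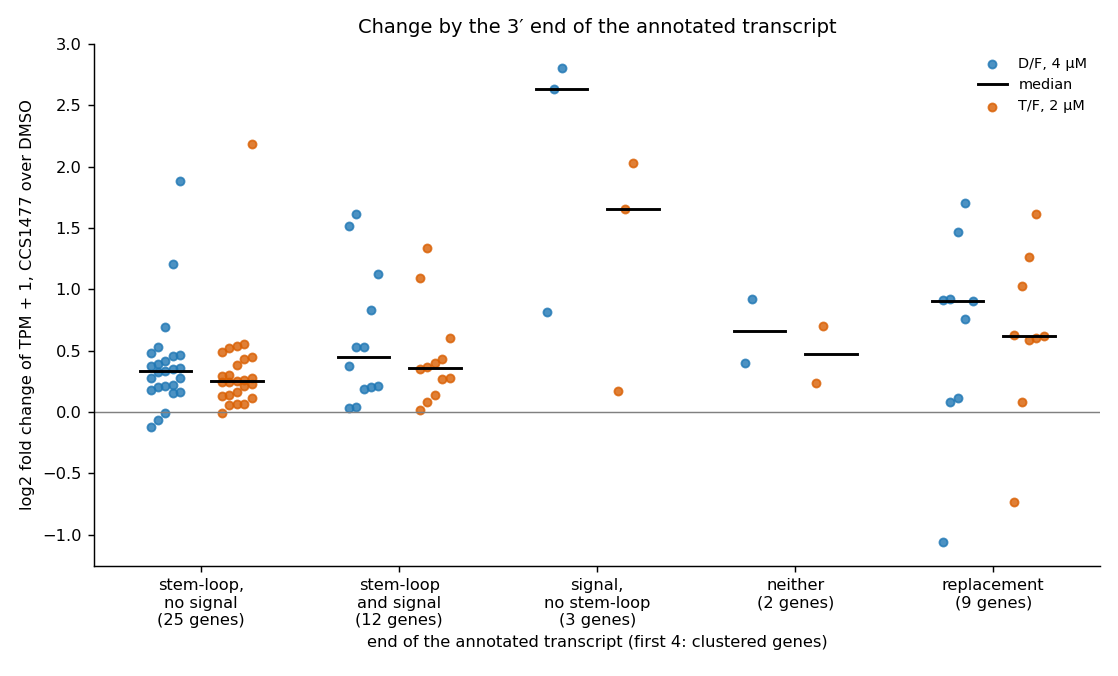
Log2 fold change of TPM + 1 with CCS1477 against DMSO of protein-coding histone genes whose annotated transcript runs at least 40 bases past the stop codon, by the end of the transcript (stem-loop, polyadenylation signal within the last 50 bases), with 1 point per gene, *D/F* in blue, *T/F* in orange and medians as black bars. Most genes with a stem-loop lie just above 0, with medians of 0.25 to 0.45, the 3 clustered genes with a signal alone reach 2.81, and the replacement genes spread from -1.06 to 1.71.

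Many H2A and H2B genes lie head to head and share the DNA between their start sites, and 8 such pairs of members have annotated start sites less than 500 bases apart. In 5 of the 8 pairs the log2 fold changes of the partners were within 0.3 of each other in both genotypes. *Hist2h2be* and *Hist2h2ac* stood apart, with start sites 239 bases from each other. *Hist2h2ac*, an H2A gene on the minus strand, was at 773, 486 and 814 TPM and then 948, 555 and 914 TPM in *D/F*, and at 801, 808 and 758 and then 1001, 953 and 912 TPM in *T/F*. Its log2 fold changes were 0.22 in *D/F* (adjusted p = 0.673) and 0.27 in *T/F* (adjusted p = 0.0194, limma), against 2.81 and 2.03 for *Hist2h2be*. In each mouse *Hist2h2be* changed more, by 2.16 to 3.11 in *D/F* and 1.72 to 1.81 in *T/F* on the log2 scale. The pair *Hist3h2bb-ps* and *Hist3h2a*, 173 bases apart, had values of 0.52 and 1.61 in *D/F*, then 0.59 and 1.10 in *T/F*, and *Hist3h2a* changed more in each of the 6 mice, by 0.47 to 2.16. *Hist1h2ad* changed more than its partner *Hist1h2bf* in *D/F* (1.20 against 0.46) and not in *T/F* (0.45 against 0.56).

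**Figure D5:**
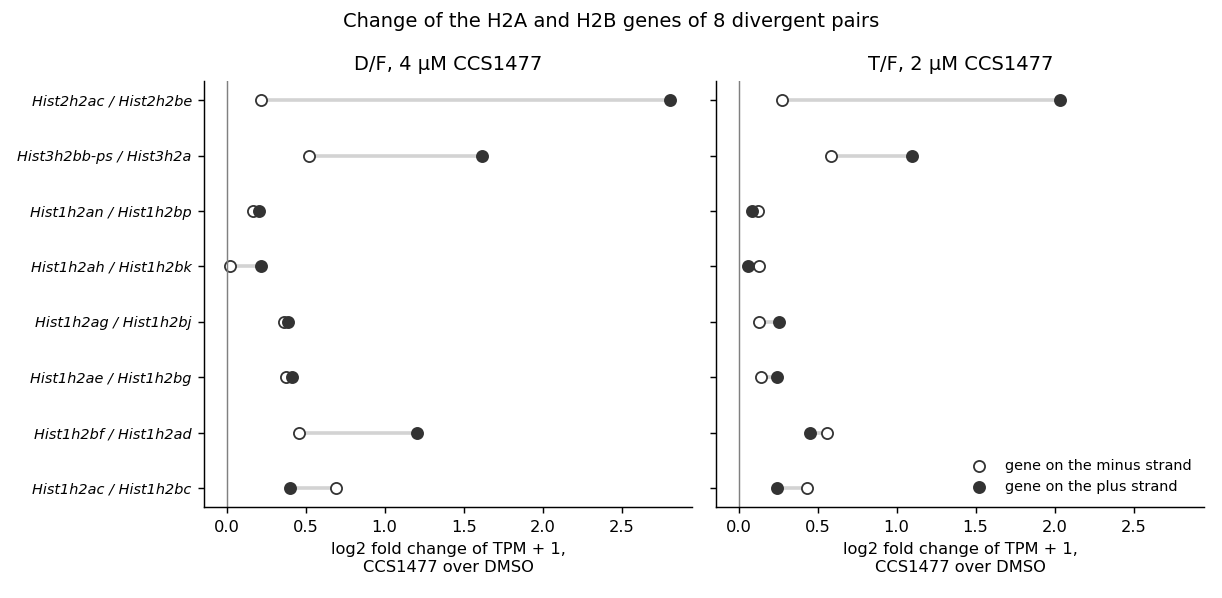
Log2 fold change of TPM + 1 with CCS1477 against DMSO of the partners of 8 head-to-head pairs of histone genes, in *D/F* at left and *T/F* at right, with the minus-strand gene as an open and the plus-strand gene as a filled circle joined by a grey line. The long lines at the top belong to *Hist2h2ac* with *Hist2h2be* and *Hist3h2bb-ps* with *Hist3h2a*, and most other partners lie close together.

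Promoter sequences of RefSeq (250 bases before to 50 after the start site, GRCm38.p6) matched 48 clustered genes with 49 promoters and 9 replacement genes. CCAAT was present on either strand in 83.7% of the clustered and 66.7% of the replacement promoters, against 37.4% of 32851 promoters in all. TATAAA was present in 61.2%, 11.1% and 13.6%, and the octamer ATTTGCAT, known from H2B promoters and searched after the other motifs, in 22.4%, 11.1% and 1.74%. The promoters shown are those of *Hist2h2ac*, which covers the DNA between it and *Hist2h2be*, of *Hist3h2a*, which covers that between it and *Hist3h2bb-ps*, and of *H3f3b*, the replacement gene with the largest rise in *D/F*. Matches to the motifs on either strand are in capitals. They are chr3:96220831-96221130 on the minus strand, chr11:58954435-58954734 on the plus strand and chr11:116024455-116024754 on the minus strand. The RefSeq start of *H3f3b* lies inside the longer gene of the GENCODE annotation. A match describes the letters only.
Hist2h2ac: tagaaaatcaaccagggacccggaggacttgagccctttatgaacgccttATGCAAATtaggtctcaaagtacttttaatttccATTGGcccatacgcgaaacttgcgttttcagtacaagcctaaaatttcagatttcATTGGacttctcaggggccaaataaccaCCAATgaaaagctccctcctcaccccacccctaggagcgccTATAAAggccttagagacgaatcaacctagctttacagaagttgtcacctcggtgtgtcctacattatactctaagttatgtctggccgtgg
Hist3h2a: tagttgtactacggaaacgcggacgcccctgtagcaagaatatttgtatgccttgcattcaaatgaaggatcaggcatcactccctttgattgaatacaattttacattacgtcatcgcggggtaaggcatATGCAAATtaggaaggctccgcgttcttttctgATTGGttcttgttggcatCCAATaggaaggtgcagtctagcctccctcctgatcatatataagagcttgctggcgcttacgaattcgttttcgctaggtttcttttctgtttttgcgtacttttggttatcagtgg
H3f3b: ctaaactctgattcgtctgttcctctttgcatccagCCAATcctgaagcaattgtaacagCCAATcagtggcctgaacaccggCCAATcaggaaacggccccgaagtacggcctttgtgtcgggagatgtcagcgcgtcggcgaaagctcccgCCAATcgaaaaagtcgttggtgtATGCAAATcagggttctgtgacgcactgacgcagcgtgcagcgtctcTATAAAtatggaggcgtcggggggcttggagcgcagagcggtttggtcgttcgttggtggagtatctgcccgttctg

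All 3 of these promoters hold CCAAT and the octamer, and those of *Hist2h2ac* and *H3f3b* also TATAAA. The promoter of the abundant *Hist1h2bk* holds all 3 motifs too, and that gene had a log2 fold change of 0.22 in *D/F*, against 0.06 in *T/F*. The promoter of *H2afy*, the member that fell, holds none of them, and neither do those of *H1fx* and *Hist1h4h*, which rose over both genotypes.

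Of the replacement histones, the genes of H3.3 rose in every mouse. *H3f3b* (chromosome 11 from 116021912 to 116027962, minus strand) went from 512, 381 and 502 TPM to 1648, 1248 and 1666 TPM in *D/F* and from 429, 479.9 and 449 TPM to 1084, 1096 and 1078 TPM in *T/F*. The treated libraries were at least 2-fold above their own DMSO library in all 6 mice. *H3f3a* (chromosome 1 from 180800832 to 180813943, minus strand), which encodes the same protein, went from 618, 742 and 562 TPM to 1088, 1245 and 927 TPM in *D/F* and from 638, 659 and 673 TPM to 995, 1005 and 1048 TPM in *T/F*. Neither gene overlapped between treatments. The log2 fold changes of *H3f3b* were 1.71 (SE 0.20, adjusted p = 0.00834) and 1.26 (SE 0.07, adjusted p = 0.000334), and those of *H3f3a* 0.76 (SE 0.19, adjusted p = 0.048) and 0.63 (SE 0.06, adjusted p = 0.000963, limma). The antisense RNA *H3f3aos* was low, at 1.14 to 4.66 TPM with DMSO and 3.06 to 8.63 TPM with CCS1477, and rose over both genotypes by 0.84 (adjusted p = 0.0113, limma), and whether the authors' estimate kept the strands of *H3f3a* and *H3f3aos* apart is not stated. The pseudogenes *H3f3c* and *H3f3a-ps2*, at means of 5.17 and 2.09 TPM, did not pass, with 0.12 and -0.27, and with the mouse as a block *H3f3a-ps2* passed in *D/F* at -0.76 (adjusted p = 0.0109).

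*H3f3a* and *H3f3b* together made up 13.7% to 18.8% of the TPM of the H3 genes in the table with DMSO in *D/F* and 24.9% to 30.2% with CCS1477. In *T/F* the share was 13.1% to 14.8% and then 19.6% to 22.0%. The ranges did not overlap in either genotype. The share counts the 6 clustered H3 genes that have a row. Others, among them *Hist1h3f* and *Hist2h3c1*, have none, and *Hist1h3e* shares 75.2% of its words with *Hist1h3f*. How far clustered RNA without a poly(A) tail was kept is not known either. The percentages are therefore shares of the listed TPM and not of the H3 mRNA of the cells.

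Variants of H2A moved in different directions. *H2afz* (chromosome 3 from 137864487 to 137866922, plus strand), which encodes H2A.Z, went from 613, 571 and 648 TPM to 1263, 921 and 1292 TPM in *D/F* and from 773, 748 and 771 TPM to 1178, 1122 and 1139 TPM in *T/F*. *H2afv* (chromosome 11 from 6427229 to 6444443, minus strand), the second H2A.Z gene, went from 49.8, 104 and 36.8 TPM to 108, 132 and 94.4 TPM in *D/F* and from 51.9, 48.3 and 52.7 TPM to 113, 103 and 99.4 TPM in *T/F*. For *H2afv* the *D/F* groups overlapped, with replicate 2 at 104 TPM under DMSO. Log2 fold changes were 0.91 (SE 0.18, adjusted p = 0.0298) and 0.58 (SE 0.06, adjusted p = 0.00106) for *H2afz*, and 0.92 (SE 0.38, adjusted p = 0.164) and 1.03 (SE 0.08, adjusted p = 0.000577, limma) for *H2afv*. With the mouse as a block *H2afv* passed in *D/F* (adjusted p = 0.037). *H2afz* shares 33.5% of its words with *Tmcc1*, which was at means of 16.1 to 28.6 TPM in the 4 groups and rose by 0.69 over both genotypes (adjusted p = 0.00103, limma).

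*H2afx* (chromosome 9 from 44334694 to 44336077, plus strand) encodes H2A.X, the variant phosphorylated at DNA breaks. It was at 265 to 358 TPM with DMSO and 549 to 623 TPM with CCS1477 in *D/F*, and at 356 to 380.3 and 534 to 595 TPM in *T/F*, without overlap. It rose by 0.91 in *D/F* (SE 0.17, adjusted p = 0.0243) and 0.62 in *T/F* (SE 0.07, adjusted p = 0.00148, limma) on the log2 scale. *H2afj*, another H2A variant, stayed between 34.8 and 46.8 TPM in the 12 libraries, with log2 fold changes of 0.08 and 0.09 that did not pass (adjusted p = 0.785 and 0.326, limma).

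*H2afy* (chromosome 13 from 56073619 to 56136361, minus strand), which encodes macroH2A1, a variant with a large non-histone domain, was the only member that fell over both genotypes, and it was lower in all 6 mice. It was at 916, 1351 and 1011 TPM with DMSO and 514, 478 and 561 TPM with CCS1477 in *D/F*, and at 1061, 958 and 1179 and then 651, 625 and 638 TPM in *T/F*. Every treated library was below every DMSO library. The log2 fold changes were -1.06 (SE 0.19, adjusted p = 0.0235) in *D/F* and -0.73 (SE 0.09, adjusted p = 0.00202, limma) in *T/F*. *H2afy2*, the gene of macroH2A2, was at 2.82 to 6.21 TPM and rose in *T/F* by 0.61 (adjusted p = 0.00778, limma), with 0.11 in *D/F* (adjusted p = 0.751). Over both genotypes it passed without the mouse as a block (0.36, adjusted p = 0.0435, limma) and not with it (adjusted p = 0.0561).

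*H1fx* (chromosome 6 from 87980421 to 87981637, minus strand), a linker histone outside the clusters, went from 7.20, 31.3 and 8.23 TPM to 38.1, 43.8 and 28.3 TPM in *D/F* and from 6.50, 3.67 and 9.04 TPM to 21.7, 14.6 and 27.5 TPM in *T/F*. The *D/F* groups overlapped through replicate 2, which was at 31.3 TPM with DMSO. On the log2 scale *H1fx* changed by 1.46 in *D/F* (SE 0.53, adjusted p = 0.124) and 1.61 in *T/F* (SE 0.34, adjusted p = 0.0126, limma), and the *D/F* value passed once the mouse was a block (adjusted p = 0.0418). The pseudogene *H2af-ps* was at 0.435 to 2.24 TPM and did not pass (0.09 over both genotypes, adjusted p = 0.75, limma).

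The responses of the genotypes were compared by the difference of their log2 fold changes, *T/F* minus *D/F*. No member passed and no gene of the table did (0% of 15583 in either direction, limma). An unadjusted p under 0.05 was reached by 659 of the 15583 genes and by 1 member, *Hist1h2ad*, with a difference of -0.75 (SE 0.28, limma). With the mouse as a block 0 members passed and 6 had an unadjusted p under 0.05, and the share of all genes for that fit is not given here. For *Hist2h2be* the difference was -0.77 (SE 0.38) and for *H3f3b* -0.45 (SE 0.21). Dose differs with genotype in each of these values.

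Under DMSO alone, no histone gene differed between *T/F* and *D/F* at an adjusted p under 0.05 (count 0, limma), where 0.0131% of 15265 genes were called higher and 0.0197% lower in *T/F*. An unadjusted p under 0.05 was reached by 5 members (*Hist3h2ba*, *Hist3h2bb-ps*, *H2afz*, *Hist1h2ae* and *Hist1h2ad*), each higher in *T/F*, with log2 differences of 0.91, 0.81, 0.33, 0.43 and 0.53. Of the clustered genes 47 of 55 were higher in *T/F*, with a median of 0.25, and *D/F* replicate 2 was the lowest *D/F* library for their sum at 27233 TPM. The share of all genes at the unadjusted threshold, or higher in *T/F*, is not given here. Neither count is therefore read as a difference between the genotypes.

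Genes that act on histones or their mRNA did not move as 1 group. Of 16 genes for processing of histone mRNA, 2 rose (12.5%) and 8 fell over both genotypes, against 25.8% and 19.6% of all genes, with a median log2 fold change of -0.12. *Slbp*, whose product binds the stem-loop, was at 109 ± 5.80 TPM with DMSO and 205 ± 45.8 TPM with CCS1477 in *D/F*, and at 129.5 ± 8.25 and 206 ± 10.2 TPM in *T/F* (SD, n = 3 each). It rose by 0.89 (adjusted p = 0.0408) and 0.67 (adjusted p = 0.00169, limma). *Npat*, the coactivator of clustered histone genes, was at 30.1 ± 1.05 and 28.0 ± 1.22 TPM in *D/F* and 28.3 ± 1.28 and 28.7 ± 1.72 TPM in *T/F* (SD, n = 3 each), with values of -0.10 and 0.02 that did not pass (adjusted p = 0.667 and 0.833, limma). *Cpsf3*, the nuclease that cuts histone pre-mRNA, fell by 0.72 and 0.52 on the log2 scale (adjusted p = 0.0366 and 0.00175), and *Mblac1*, a nuclease related to it, fell by 0.71 and 0.37 (adjusted p = 0.0312 and 0.0409, limma).

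Of 34 histone chaperones and their partners 9 rose (26.5%) and 8 fell (23.5%) over both genotypes (median -0.05), near the 25.8% and 19.6% of all genes. *Cenpa*, the centromeric H3 variant in that list, rose by 0.61 in *D/F* (adjusted p = 0.0422) and by 0.74 in *T/F* (adjusted p = 0.00133), and *Tonsl*, which binds newly made H3 and H4, by 0.79 and 0.44 (adjusted p = 0.042 and 0.00783, limma). *Ipo4*, an importin for H3 and H4, had -1.41 and -0.99 (adjusted p = 0.0251 and 0.00427, limma) and fell in both. In *D/F* alone 2 of the 34 rose (5.88%) and 1 fell (2.94%), against 5.14% and 6.51% of all genes, and with the mouse as a block 8 rose and 8 fell (23.5% each), against 21.4% and 18.0%.

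S phase genes are given because clustered histone genes are transcribed with them. Of 30 such genes 4 rose (13.3%) and 5 fell (16.7%) over both genotypes, against 25.8% and 19.6% of all genes, with a median log2 fold change of -0.09 against 0.31 for the clustered histone genes. In *T/F* 11 rose (36.7%) and 6 fell (20.0%), against 25.8% and 17.6%, with a median of 0.01, and in *D/F* 1 rose (*Slbp*) and 1 fell (*Cdca7*, a MYC target, by 1.56 on the log2 scale, adjusted p = 0.0113, limma). With the mouse as a block 9 rose and 9 fell over both genotypes (30.0% each), against 34.5% and 25.9% of all genes. The part of the cell cycle in the histone values was not tested. *Ep300* and *Crebbp*, which encode the proteins that CCS1477 binds, had log2 fold changes of 0.70 and 0.76 in *D/F* (adjusted p = 0.0294 and 0.0562) and 0.81 and 0.81 in *T/F* (adjusted p = 0.00084 and 0.00051, limma), and *Myc* had -4.21 and -3.45 (adjusted p = 0.00131 and 0.000311, limma).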

How the data were processed

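The authors deposited TPM, a transcript abundance per Ensembl gene scaled to gene length and library total, estimated by kallisto from reads on mm10, and processed in AltAnalyze. The kallisto version and the annotation behind the table are not given in the sources used here. The TPM values are linear and neither pooled nor averaged, and all genes reach at least 2.00 TPM in 1 library, so lower genes had been left out. TPM keeps no read numbers, so no count model was fitted, and precision is the spread between 3 mice.

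Of 15651 identifiers 15252 have a symbol in GENCODE vM21 of GRCm38, from which members, transcript ends and shared words of 31 bases were taken. The members and the gene lists were chosen with earlier results of these data known. Genes whose mean reached 1 TPM in any group compared entered the fits, made on log2(TPM + 1) with limma 3.58.1 (R 4.3.3, two-sided, eBayes without a trend, Benjamini-Hochberg over all genes tested), and an adjusted p under 0.05 counted as passed. Fold changes are on that scale, which understates changes of low genes. The fit was checked on simulated data.

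Libraries with the same replicate number within a genotype come from the same mouse by the labels. Across genes, their deviations from the group means correlated at 0.539, 0.669 and 0.541 in *D/F*, at 0.383, 0.354 and 0.496 in *T/F*, and at most 0.141 between mice, so the numbers pair the samples. The mouse was a block in an alternative. Other alternatives changed the pseudocount to 0.1, the filter to 5 TPM or none, or used a trend, rescaling to the median, quantile normalization, a shared fit of the 4 groups, and leaving out each mouse. Named genes were all replacement members, clustered members that passed in *D/F* or changed at least 2-fold in *T/F* or over both genotypes, the 8 highest clustered members, *Slbp*, *Npat*, *Cenpa*, and up to 4 genes each way of the other lists that passed in both genotypes. Other genes are named from their values.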

Additional observations from a re-analysis of the deposited data

Results flagged for a closer look

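*Hist1h4f*, an H4 gene, moved one way in all mice of a genotype and the other way in all mice of the other. It was at 1179.9, 865 and 1163 TPM with DMSO and 1166, 792 and 1119 TPM with CCS1477 in *D/F*, lower in 3 of 3 mice, with a log2 fold change of -0.067. In *T/F* it was at 1260.5, 1194 and 1147 TPM and then 1333, 1277 and 1163 TPM, higher in 3 of 3 mice, with 0.065. The groups overlapped in each genotype, and the difference between the genotypes did not pass limma's test (adjusted p = 1.00).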

How the results depend on the processing

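The number of members that rose in *D/F* was 11, and it became 7 with libraries rescaled to the median, 18 in the shared fit of the 4 groups, 34 with the mouse as a replicate block, 20 with that block and without *D/F* replicate 2 (chosen after seeing the data), and between 0 and 18 with each mouse left out. Members that fell in *D/F* numbered 1, against 2 by quantile normalization, 2 with the block, 2 with the block and without replicate 2, and 0 to 1 with each mouse left out. In *T/F* 32 members rose, against 42 with the mouse as a block, 18 after rescaling, 14 in the shared fit and 15 to 28 with each mouse left out. Over both genotypes 34 rose, against 49 with the block and 18 after rescaling. In *D/F* the share of all genes called higher was 5.14%, and it went up to 6.99% after rescaling, where fewer members were called. It was 17.5% in the shared fit, 21.4% with the block and 17.8% with the block and without replicate 2. The share called lower there was 6.51%, against 8.35% by quantile normalization and 18.0% with the block. Over both genotypes 25.8% were called higher, 34.5% with the block and 23.2% after rescaling. In *T/F* the share called higher moved with the counts of members, from 25.8% to 31.2% with the block, 20.6% after rescaling and 13.8% in the shared fit. With the block the clustered genes of *T/F* were at 61.8%, and after rescaling or in that shared fit at 18.2% and 12.7%.

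Directions that turned belonged to members near 0. In *D/F*, *Hist2h3b* had -0.0050 after rescaling and -0.000600 with the block and without replicate 2, and ranged from -0.000600 to 0.070 with each mouse left out. *H2af-ps* had 0.038 by quantile normalization and 0.077 with the block and without replicate 2. With each *D/F* mouse left out the ranges were -0.055 to 0.251 for *H2afj*, -0.10 to 0.336 for *H2afy2* and -0.16 to 0.426 for *H3f3c*, and *H2af-ps* reached 0.077. In *T/F*, *Hist1h2bk* had -0.016 after rescaling, and with each mouse left out the ranges were -0.28 to 0.685 for *H3f3a-ps2*, -0.16 to 0.418 for *H3f3c* and -0.017 to 0.375 for *H2af-ps*. Over both genotypes they were -0.024 to 0.275 for *H3f3c* and -0.033 to 0.164 for *H2af-ps*. Among all values recomputed, 924 kept their direction and side of the threshold, 78 lost the call or left its size, 25 gained it and 16 turned. Named members also lost calls. In *D/F* these were *H2afx*, *H2afz*, *Hist3h2a* and *Hist1h1a* after rescaling, *H3f3a* with a pseudocount of 0.1 (adjusted p = 0.0576) and by quantile normalization (adjusted p = 0.0827), *Hist1h2bq* without replicate 2 (adjusted p = 0.0578, limma), and all 12 members called without replicate 1 or replicate 3. In *T/F* the abundant *Hist1h4d*, *Hist1h4k*, *Hist1h4h* and *Hist1h3b* lost theirs after rescaling, in the shared fit, and without replicate 1 or 2, *Hist1h4c* after rescaling and without replicate 2, *Hist1h2ad* and *H3f3aos* in the shared fit, *Hist1h2ad*, *H1fx* and *Hist1h2bq* without replicate 1, *Hist1h2bq* and *H2afy2* without replicate 3, and *Hist1h4d* by quantile normalization. Over both genotypes *H2afy2*, *Hist1h4d*, *Hist1h4k*, *Hist1h4h* and *Hist1h3b* lost theirs after rescaling, *H2afy2* also with a trend, by quantile normalization and in 5 of the 6 fits without a mouse, *Hist1h4d* by quantile normalization and without any *T/F* mouse, and *Hist1h4h* without any *T/F* mouse or *D/F* replicate 1. Besides the block values printed above, the block brought over the threshold in *D/F* *H3f3aos*, *Hist1h4k*, *Hist1h3b* and *Hist1h4c* (adjusted p = 0.0201, 0.0377, 0.037 and 0.030, limma) and in *T/F* *Hist2h3b* (adjusted p = 0.0244). The cause of these differences was not tested. TPM does not show the depth behind low members such as *Hist1h2br* or *H2af-ps*, so their precision is known from 3 mice alone.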
